A study of Homo sapiens with 12 samples.

Results

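The genes described here encode subunits of the SWI/SNF chromatin remodelling complexes. They are PBRM1, ARID1A, ARID1B, ARID2, SMARCA2, SMARCA4, SMARCB1, SMARCC1, SMARCC2 and BRD7, 10 genes of the 17958 that could be compared. For each gene the probe set that carried its symbol and no other was taken, and where there were several, the probe set was selected on the highest mean over the 12 arrays. All 10 genes were found, each with 1 such probe set except BRD7, which had 2. The family was taken up after PBRM1 had been seen among the largest falls with astrocytes under estradiol, so the values of PBRM1 in that comparison are given as a description without a test, and the counts of tested genes there are over the other 9.

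SWI/SNF complexes use the energy of ATP to slide or evict nucleosomes, which opens or closes DNA to transcription factors. One of a pair of alternative ATPases, SMARCA4 (BRG1) or SMARCA2 (BRM), drives each complex, and SMARCC1, SMARCC2 and SMARCB1 belong to the shared core of the canonical forms. The canonical BAF form carries ARID1A or ARID1B, whereas the PBAF form carries ARID2, PBRM1 and BRD7. Several of these genes are tumour suppressors, and in breast cancer ARID1A is among those mutated.

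RNA was measured on single-colour Affymetrix Human Gene ST arrays in 231BR cells, which derive from MDA-MB-231, a human breast cancer line without estrogen receptor alpha, and home to the brain. All cells carried EGFP, and by the labels RNA came from sorted human cells. The 4 groups of 3 arrays were estradiol with astrocytes (10 nM estradiol, sorted after 24 h of culture with mouse astrocytes), estradiol alone (10 nM estradiol, no astrocytes), vehicle with astrocytes (vehicle, sorted after 24 h of culture with mouse astrocytes) and vehicle alone (vehicle, no astrocytes). They all come from 1 derived line. Nothing in the labels tells whether the replicates of a group were grown apart, so p-values here measure only the spread between these samples, which may be technical. Values are log2 signals of probe sets, and precision is limited by having 3 arrays a group. A probe set's level was compared only with its own level on other arrays. In sorted bulk RNA, fewer cells that express a gene and less of its RNA per cell cannot be told apart.

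Before the results, 2 properties of the arrays need stating. The SD over an array's log2 values, a measure of its range of signal, was 1.62 to 2.10 in estradiol with astrocytes, 2.12 to 2.20 in estradiol alone, 1.82 to 2.04 in vehicle with astrocytes and 2.04 to 2.22 in vehicle alone. Replicate 2 had the lowest SD of its group in both astrocyte groups. Of 12 astrocyte marker genes, 1 passed the test upwards with astrocytes under estradiol (NDRG2) and 1 downwards (SLC1A3), and none passed under vehicle. The summed linear signal of the 12 was 485 to 599 in estradiol with astrocytes, 548 to 596 in estradiol alone, 508 to 631 in vehicle with astrocytes and 536 to 577 in vehicle alone. Their median log2 signal was 5.16 to 5.45 in estradiol with astrocytes, 4.54 to 4.70 in estradiol alone, 5.10 to 5.48 in vehicle with astrocytes and 4.61 to 5.19 in vehicle alone. Differences with astrocytes were positive for 8 of the 12 under either treatment, with a median of 0.59 under estradiol and 0.25 under vehicle. Over all genes the medians were 0.07 and 0.06 in the same order. GFAP, the intermediate filament gene of astrocytes, read 5.43, 6.70 and 5.78 in estradiol with astrocytes, against 4.72, 5.17 and 4.91 in estradiol alone. The water channel gene AQP4 read 2.65 to 3.93 over all 12 arrays, among low signals, and no marker was at 0 on this scale. The median of 13 genes known for their expression in the parental line, VIM and CD44 among them, was 7.68 to 9.32 in estradiol with astrocytes and 9.37 to 9.43 in estradiol alone. The part of these properties in the results below was not tested, except where a value with the array SD as a covariate is given.

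Promoter sequences were read from RefSeq for GRCh38.p14, as windows of 300 bases running from 250 bases before to 50 bases after a start site. The table held 13 windows for 7 of the 10 genes, and none for ARID2, SMARCC1 or SMARCC2. The windows shown belong to PBRM1, whose difference with astrocytes was the widest of the family, to ARID1A, which fell, and to SMARCB1, which did not. Each is printed 5′ to 3′ on the strand of its gene, with GC boxes (GGGCGG on either strand, the core of the SP1 site) in capitals.
PBRM1 chr3:52685864-52686163 (minus strand): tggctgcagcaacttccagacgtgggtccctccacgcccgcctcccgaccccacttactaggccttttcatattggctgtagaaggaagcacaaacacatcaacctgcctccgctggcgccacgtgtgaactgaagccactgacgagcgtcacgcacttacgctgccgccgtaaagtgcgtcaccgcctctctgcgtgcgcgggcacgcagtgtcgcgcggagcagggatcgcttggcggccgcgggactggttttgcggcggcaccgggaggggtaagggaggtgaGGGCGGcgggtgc
PBRM1 chr3:52685550-52685849 (minus strand): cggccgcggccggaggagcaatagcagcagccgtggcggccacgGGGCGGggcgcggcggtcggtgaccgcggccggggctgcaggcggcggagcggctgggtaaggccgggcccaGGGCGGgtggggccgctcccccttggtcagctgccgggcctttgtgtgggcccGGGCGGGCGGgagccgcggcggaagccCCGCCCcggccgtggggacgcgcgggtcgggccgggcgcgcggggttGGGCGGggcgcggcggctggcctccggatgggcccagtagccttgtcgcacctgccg
ARID1A chr1:26695765-26696064 (plus strand): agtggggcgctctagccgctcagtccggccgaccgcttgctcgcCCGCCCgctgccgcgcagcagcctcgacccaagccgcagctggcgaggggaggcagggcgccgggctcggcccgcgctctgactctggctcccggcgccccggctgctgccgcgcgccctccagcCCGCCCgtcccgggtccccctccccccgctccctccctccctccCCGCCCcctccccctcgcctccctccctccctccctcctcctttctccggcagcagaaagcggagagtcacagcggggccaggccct
SMARCB1 chr22:23786716-23787015 (plus strand): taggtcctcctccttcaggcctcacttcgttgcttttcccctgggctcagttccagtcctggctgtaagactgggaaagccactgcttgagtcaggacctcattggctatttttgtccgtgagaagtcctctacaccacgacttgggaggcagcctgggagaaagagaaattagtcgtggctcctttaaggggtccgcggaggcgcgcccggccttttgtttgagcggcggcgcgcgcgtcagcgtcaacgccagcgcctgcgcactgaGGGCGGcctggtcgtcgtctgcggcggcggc
The GC box was present in 8 of the 13 windows and in at least 1 window of each of the 7 genes, against 45.0% of all 35116 windows in the table. ARID1A held 3 copies, SMARCB1 held 1, and the PBRM1 windows held 1 and 6. The median GC content of the 13 windows was 65.3%, against 58.7% over all windows, and they held a median of 30 CpG dinucleotides, against 14. TGANTCA, the AP-1 motif, matched 2 windows, of SMARCA2 and SMARCB1, against 7.71% of all. CCGGAAG, a core of ETS sites, matched 1 window of SMARCA2, against 10.3%, and TATAAA matched another window of SMARCA2, against 11.5%. All motifs were searched on both strands, and none of these results bears on whether a factor binds there.

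**Figure D1:**
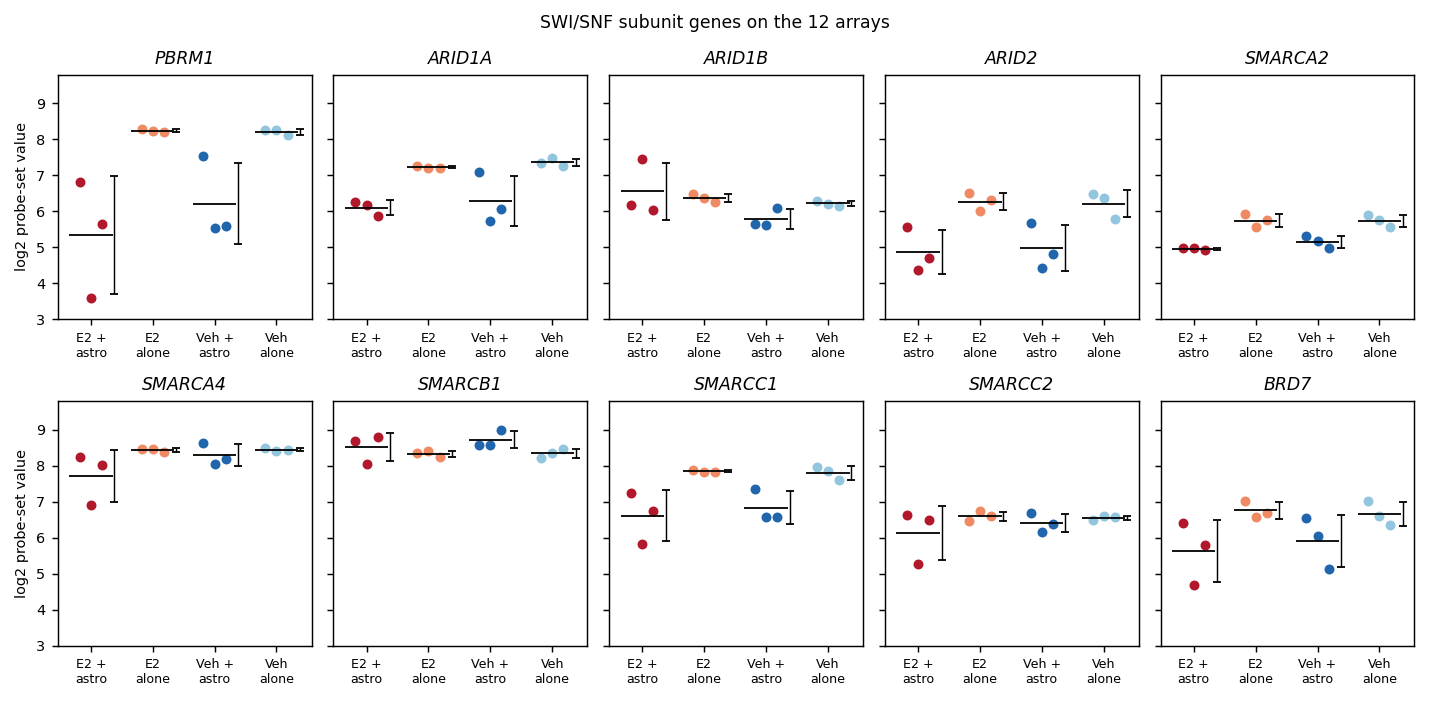
Log2 probe-set value (y axis, same range in every panel) of each of the 10 subunit genes on the 12 arrays, 3 arrays a group, where E2 is estradiol, Veh vehicle and astro astrocytes. Points are arrays in the order of replicates 1 to 3, horizontal lines are group means and bars are SD. PBRM1 spans 3.58 to 7.53 over the arrays with astrocytes and 8.12 to 8.29 over those without, whereas SMARCB1 lies between 8.06 and 8.99 throughout.

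Of the PBAF genes, ARID2 fell with astrocytes under estradiol, BRD7 did not pass the test, and PBRM1 is described without one. PBRM1 (probe set 8087951) encodes the bromodomain protein by which PBAF is known, a tumour suppressor lost in many clear cell kidney cancers. It read 6.81, 3.58 and 5.65 in estradiol with astrocytes, against 8.29, 8.23 and 8.21 in estradiol alone. All 3 arrays with astrocytes lay below all 3 without, replicate 2 the farthest, and the arrays without astrocytes differed by less than 0.1. The group means were 5.35 ± 1.63 and 8.24 ± 0.040 (SD, n = 3 each), a difference of −2.90 (SE 0.69) or 7.45-fold, the 10th lowest of 17958 genes. As that fall led to the choice of the family, its size and rank were fixed by the choice and are description only. Without replicate 2 of estradiol with astrocytes the difference was −2.01, and without replicate 1 it was −3.63.

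ARID2 (probe set 7955019), which encodes the DNA-binding subunit that PBAF carries in place of ARID1A or ARID1B, fell with astrocytes under estradiol. Its log2 values were 5.55, 4.37 and 4.70 in estradiol with astrocytes, against 6.50, 6.01 and 6.30 in estradiol alone. No array with astrocytes reached the lowest array without. The difference was −1.40 (SE 0.37), 2.64-fold, with an adjusted p of 0.0402 in limma over all genes. BRD7 (probe set 8001350), which encodes a bromodomain protein of PBAF, read 6.40, 4.69 and 5.79 in estradiol with astrocytes, against 7.01, 6.57 and 6.68 in estradiol alone. Here too the groups did not overlap, by a gap of 0.18, but the difference of −1.13 (SE 0.43) had an adjusted p of 0.0781 in limma and did not pass. A dimmer probe set of BRD7 (8083704) read 2.79, 3.41 and 3.50 in estradiol with astrocytes, against 4.37, 3.56 and 4.21 in estradiol alone, so it lay on the same side. With the mean of both probe sets as the level of BRD7, the difference was −0.97 and the adjusted p in limma 0.0408.

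Of the BAF genes, ARID1A fell and ARID1B did not pass, and the difference between them was not tested. ARID1A (probe set 7899220) encodes a large subunit that binds DNA without strict sequence preference. It fell to 6.25, 6.18 and 5.87 in estradiol with astrocytes, against 7.26, 7.21 and 7.21 in estradiol alone. These are tight groups, with SDs of 0.20 and 0.026, set 0.96 apart at their nearest arrays. The difference was −1.12 (SE 0.29), 2.18-fold, with an adjusted p of 0.0396 in limma. ARID1B (probe set 8122971), the alternative to ARID1A, read 6.18, 7.47 and 6.03 in estradiol with astrocytes, against 6.47, 6.36 and 6.26 in estradiol alone. Replicate 2 stood above every other array for this gene, whereas replicates 1 and 3 lay below all arrays of estradiol alone. The difference of 0.19 (SE 0.32) had an adjusted p of 0.629 in limma, and it was −0.26 without replicate 2 of estradiol with astrocytes and −0.36 with the array SD as a covariate.

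Of the ATPase genes, SMARCA2 fell with astrocytes under estradiol. SMARCA2 (probe set 8154059) read 4.98, 4.97 and 4.93 in estradiol with astrocytes, against 5.92, 5.56 and 5.75 in estradiol alone. It had the tightest values of the 10 genes in estradiol with astrocytes (SD 0.024), and replicate 2 did not stand apart. The difference was −0.78 (SE 0.18), 1.72-fold, with an adjusted p of 0.0358 in limma. SMARCA4 (probe set 8025788), the other ATPase gene, read 8.23, 6.90 and 8.02 in estradiol with astrocytes, against 8.47, 8.47 and 8.37 in estradiol alone. The arrays did not overlap, yet replicates 1 and 3 were close to estradiol alone and replicate 2 was far below. The difference of −0.72 (SE 0.31) had an adjusted p of 0.0950 in limma, and without replicate 2 it was −0.32.

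Of the core genes, SMARCC1 fell, and SMARCC2 and SMARCB1 did not pass. SMARCC1 (probe set 8086810), which encodes a scaffold subunit that forms dimers at the base of the complex, had lower signals on all 3 arrays with astrocytes. It read 7.24, 5.84 and 6.74 in estradiol with astrocytes, against 7.88, 7.84 and 7.84 in estradiol alone. The groups did not overlap, and the 3 arrays with astrocytes had the same order as for PBRM1. ARID2, BRD7, SMARCA4 and SMARCC2 had that order too, which is also the order of the array SDs. The difference was −1.25 (SE 0.33), 2.37-fold, with an adjusted p of 0.0404 in limma. SMARCC2 (probe set 7963988), its paralogue, read 6.64, 5.26 and 6.49 in estradiol with astrocytes, against 6.47, 6.73 and 6.59 in estradiol alone. Only replicate 2 lay well below the arrays without astrocytes, and the difference of −0.46 (SE 0.31, 95% interval −1.15 to 0.22) had an adjusted p of 0.245. SMARCB1 (probe set 8071768), the subunit whose loss marks rhabdoid tumours, read 8.69, 8.06 and 8.78 in estradiol with astrocytes, against 8.34, 8.40 and 8.24 in estradiol alone. Replicates 1 and 3 were above all arrays of estradiol alone and replicate 2 below them, and the difference of 0.18 (SE 0.22, 95% interval −0.31 to 0.67) had an adjusted p of 0.505 in limma.

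Counted over the 9 genes other than PBRM1, 4 passed the threshold with astrocytes under estradiol, all lower (ARID1A, ARID2, SMARCA2 and SMARCC1), where 13.2% of all genes passed in either direction and 8.15% passed downwards. Arrays of the groups did not overlap, and were lower with astrocytes, for 6 of the 9, against 23.9% of all genes. An unadjusted p under 0.05 was found for the same 6, against 43.9% of all genes. The median difference was −0.78 over the 9 and −0.95 with PBRM1, against 0.07 over all genes and −0.58 over genes above the median level. These counts describe genes chosen with earlier results in view. Calls moved with single arrays, over all genes as well as in the family. None of the 9 passed in limma without replicate 2 of estradiol with astrocytes (2.32% of all genes) or without replicate 3 (0.0167%). None passed without any 1 of the 3 arrays of estradiol alone (0.0167% to 0.0278% of all genes). The same held without replicate 1 (0.0724%) or 2 (0.0557%) of vehicle alone. The adjusted p of the 4 genes in limma over these and all other single omissions ranged up to 0.157. Without replicate 3 of vehicle with astrocytes 1 of the 9 passed, where 5.75% of all genes did, and 6 passed without replicate 1 of estradiol with astrocytes, where 51.4% of all genes did. With the array SD as a covariate none of the 9 passed, where 2.61% of all genes did, and the median difference of the 9 was −0.36. After quantile normalization 1 of the 9 passed, SMARCA2, where 2.95% of all genes did, and ARID1A differed by −0.52. With only the arrays of the compared groups in the fit none of the 9 passed, where 0% of all genes did.

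**Figure D2:**
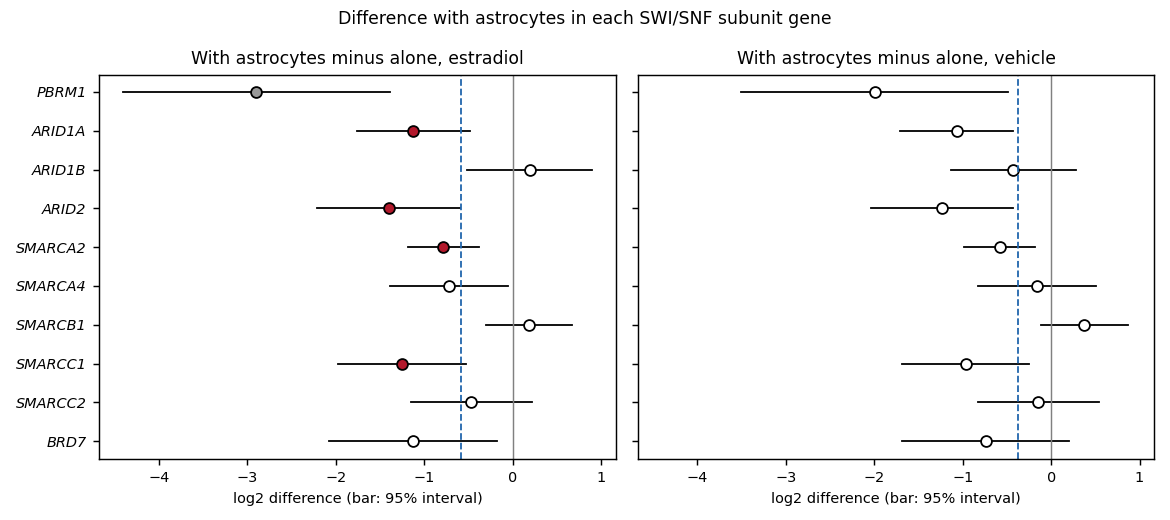
Log2 difference with astrocytes minus alone (x axis) of each subunit gene, under estradiol on the left and under vehicle on the right. Bars are 95% intervals from limma, red points passed an adjusted p of 0.05, white points did not, and the grey point is PBRM1, shown without a test. The bar of that grey point is not a test either, as the fall of PBRM1 there led to the choice of the family. The blue dashed line is the median of genes above the median level, −0.58 under estradiol and −0.37 under vehicle.

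The comparison under vehicle used other arrays, vehicle with astrocytes and vehicle alone, though the fit shares 1 estimate of the spread between both astrocyte comparisons. None of the 10 genes passed, where 0.0557% of all genes did. An unadjusted p under 0.05 was found for 5 of the 10 in limma, against 28.2% of all genes. The values were lower with astrocytes in 9 of the 10 genes, with a median difference of −0.66 over the 10, against 0.06 over all genes and −0.37 over genes above the median level. Arrays did not overlap and were lower for 6 of the 10, against 18.4% of all genes, and did not overlap and were higher for 1, SMARCB1, against 23.4%.

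Among the PBAF genes, PBRM1 read 7.53, 5.54 and 5.58 in vehicle with astrocytes, against 8.27, 8.25 and 8.12 in vehicle alone. All arrays with astrocytes were the lower ones, and replicate 1 lay nearest to vehicle alone. The difference was −2.00 (SE 0.69), with an adjusted p of 0.117 in limma. ARID2 read 5.68, 4.43 and 4.82 in vehicle with astrocytes, against 6.47, 6.38 and 5.79 in vehicle alone, a difference of −1.24 (SE 0.37) with an adjusted p of 0.0965. BRD7 read 6.56, 6.04 and 5.13 in vehicle with astrocytes, against 7.01, 6.60 and 6.34 in vehicle alone, and its groups overlapped. Its difference was −0.74 (SE 0.43), with an adjusted p of 0.258 in limma.

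In the BAF genes, ARID1A read 7.08, 5.74 and 6.06 in vehicle with astrocytes, against 7.34, 7.47 and 7.27 in vehicle alone. Replicate 1 was again the array nearest to vehicle alone, and the difference of −1.07 (SE 0.29) had the smallest adjusted p of the 10 genes under vehicle, 0.0916. ARID1B read 5.64, 5.63 and 6.11 in vehicle with astrocytes, against 6.29, 6.21 and 6.16 in vehicle alone. The groups lay 0.051 apart without overlap, with a difference of −0.43 (SE 0.32) and an adjusted p of 0.361 in limma.

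For the ATPase genes under vehicle, SMARCA2 read 5.32, 5.16 and 4.97 with astrocytes, against 5.89, 5.75 and 5.55 alone. The difference of −0.58 (SE 0.18) had an adjusted p of 0.103 in limma, and its groups did not overlap. SMARCA4 read 8.63, 8.05 and 8.18 in vehicle with astrocytes, against 8.50, 8.40 and 8.44 in vehicle alone. Replicate 1 was above every array of vehicle alone and the other two were below, and the difference was −0.16 (SE 0.31, 95% interval −0.83 to 0.51), turning to 0.22 after quantile normalization and 0.35 with the array SD as a covariate.

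Of the core genes under vehicle, SMARCC1 read 7.36, 6.57 and 6.57 with astrocytes, against 7.95, 7.85 and 7.59 alone. The difference was −0.97 (SE 0.33), with an adjusted p of 0.114 in limma, and the groups did not overlap. SMARCC2 read 6.68, 6.17 and 6.37 in vehicle with astrocytes, against 6.50, 6.59 and 6.56 in vehicle alone, a difference of −0.14 (SE 0.31, 95% interval −0.83 to 0.54), turning to 0.30 after quantile normalization and 0.37 with the array SD as a covariate. SMARCB1 read 8.59, 8.57 and 8.99 in vehicle with astrocytes, against 8.21, 8.35 and 8.45 in vehicle alone. It was the 1 gene of the 10 with a positive difference under vehicle, 0.38 (SE 0.22), and its adjusted p in limma was 0.265.

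Calls under vehicle also moved with single arrays of either treatment. In limma 5 of the 10 genes passed without replicate 2 of estradiol with astrocytes, an array outside this comparison that enters through the shared spread, and in that fit 34.0% of all genes passed. Without replicate 1 of vehicle with astrocytes 4 passed, where 9.08% of all genes did, and PBRM1 then differed by −2.65. Without replicate 1 of estradiol with astrocytes 1 passed, where 6.25% of all genes did.

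Whether the astrocyte difference itself depended on estradiol was tested by the interaction. None of the 10 genes passed, and the percentage of all genes that passed was 0. The interaction ranged over the 10 genes between −0.90 (SE 0.98, 95% interval −3.04 to 1.24) for PBRM1 and 0.62 (SE 0.46, 95% interval −0.38 to 1.62) for ARID1B. The value for PBRM1 contains its fall under estradiol, which led to the choice of the family, so it and its interval are description only. In limma, 31 genes of all had an unadjusted p under 0.05 for the interaction, none of them a gene of this family. The passing of 4 genes under estradiol and of none under vehicle is therefore not a tested difference between the treatments, and intervals this wide hold differences of either sign.

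The comparison of estradiol with vehicle among cells alone asks what the hormone does without astrocytes. None of the 10 genes passed, with adjusted p of 1.0 for each, and 0 percent of all genes passed. Differences lay between −0.14 for ARID1A and 0.15 for ARID1B, with a median of 0.04. PBRM1 averaged 8.24 ± 0.040 in estradiol alone and 8.21 ± 0.080 in vehicle alone (SD, n = 3 each), a difference of 0.03 with a 95% interval of −1.48 to 1.54. Arrays did not overlap for 1 of the 10, ARID1A, which was lower with estradiol. Over all genes 1.27% did not overlap and were lower, and 1.94% did not overlap and were higher. ARID1A read 7.26, 7.21 and 7.21 in estradiol alone, against 7.34, 7.47 and 7.27 in vehicle alone, 0.017 apart at the nearest arrays. In limma, 1 gene of all had an unadjusted p under 0.05, and it was not one of the 10.

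With astrocytes present, estradiol against vehicle again gave no call, with 0 percent of all genes passing. The widest differences were −0.87 (SE 0.69) for PBRM1 and 0.77 (SE 0.32) for ARID1B. ARID1B had the 1 unadjusted p under 0.05 of the family in limma, 0.0361, among 142 genes in all. Its values overlapped, at 6.18, 7.47 and 6.03 in estradiol with astrocytes, against 5.64, 5.63 and 6.11 in vehicle with astrocytes. PBRM1 read 6.81, 3.58 and 5.65 in estradiol with astrocytes, against 7.53, 5.54 and 5.58 in vehicle with astrocytes, and its difference was 0.013 without replicate 2 of estradiol with astrocytes. This comparison shares its arrays with both astrocyte comparisons, and its values for the family are not independent of theirs.

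The spread within groups was wider with astrocytes than alone. The median SD of the 10 genes was 0.71 in estradiol with astrocytes, 0.095 in estradiol alone, 0.38 in vehicle with astrocytes and 0.11 in vehicle alone, where the median over all genes was 0.54, 0.14, 0.33 and 0.21 in the same groups. The level of PBRM1 followed the order of the array SDs inside both astrocyte groups. With the array SD as a covariate the difference of PBRM1 was −1.22 under estradiol and −0.72 under vehicle. The same covariate left ARID1A at −0.88 under either treatment and SMARCA2 at −0.69 under estradiol and −0.51 under vehicle. Under estradiol it left ARID2 at −0.60, SMARCC1 at −0.48, BRD7 at −0.25 and SMARCA4 at −0.05, each over 1.5 times nearer to 0 than without it. SMARCB1 stood at 0.45 under estradiol and 0.58 under vehicle with it.

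**Figure D3:**
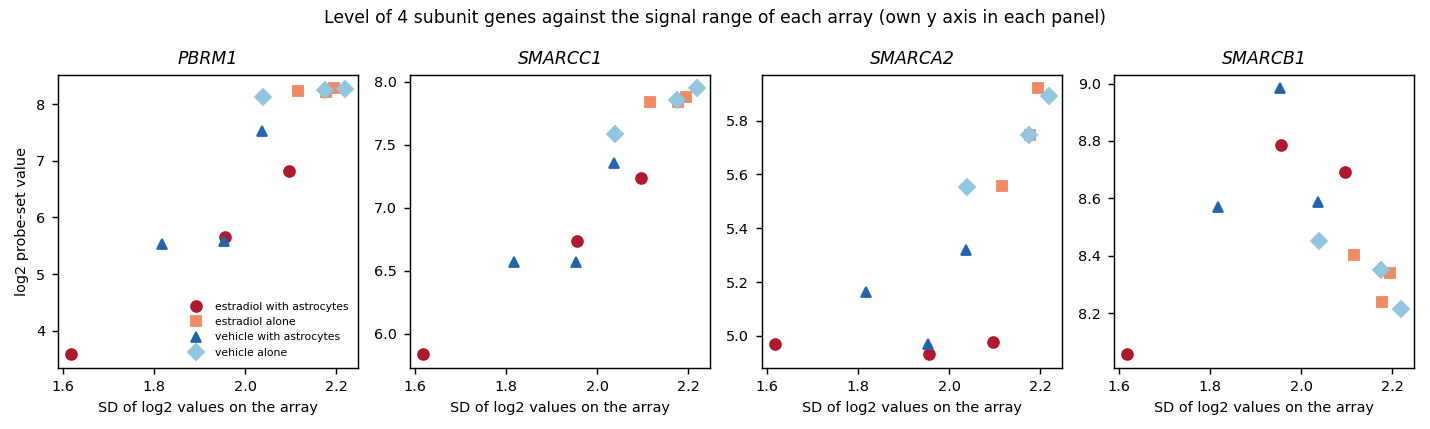
Log2 probe-set value (y axis, own range in each panel) of PBRM1, SMARCC1, SMARCA2 and SMARCB1 against the SD over each array's log2 values (x axis), 1 point for each of the 12 arrays with the 4 groups by colour and shape. The array at the far left is replicate 2 of estradiol with astrocytes, at an SD of 1.62. PBRM1 and SMARCC1 decline towards it, SMARCA2 is level over the 3 arrays of that group, and SMARCB1 is lowest there and highest in replicate 3 of vehicle with astrocytes.

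On the arrays with astrocytes PBRM1 lay lower relative to the rest of its family. Under estradiol that is description only, as the fall of PBRM1 there led to the choice of the family. Its log2 value minus the mean of the other 9 genes was 0.13, −2.39 and −0.72 in estradiol with astrocytes, against 1.14, 1.21 and 1.19 in estradiol alone. In vehicle with astrocytes it was 0.69, −0.72 and −0.77, against 1.14, 1.18 and 1.21 in vehicle alone. The 6 arrays without astrocytes gave nearly 1 value, and the arrays with astrocytes gave lower and scattered ones. Probe sets differ in brightness, so the shift between arrays and not the size on any array carries the information.

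As a measure of likeness, Pearson's r with PBRM1 was taken over the 12 arrays, which share groups, array SD and the split between cultures with and without astrocytes. SMARCC1 was the most alike of the family (r = 0.991), followed by ARID2 (0.940), BRD7 (0.923), SMARCA4 (0.884), ARID1A (0.868), SMARCA2 (0.845) and SMARCC2 (0.812). SMARCB1 (−0.198) and ARID1B (−0.340) went the other way. Among 5766 genes with a mean level of at least 6, the most alike were ARHGEF12, LAMB1, PATL1, MED13 and ANKRD17, each with r of 0.996. As PBRM1 was lower with astrocytes on these arrays, negative differences in genes picked on likeness to it follow from the choice and are description only. MED13, a subunit of the Mediator kinase module, differed by −2.07 under estradiol and −1.64 under vehicle. LAMB1, a laminin chain gene, differed by −1.97 and −1.34, and ANKRD17 by −2.36 and −1.81, in the same order of treatments.

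The genes of the family are long. Their median length in the RefSeq annotation was 120.9 kb (27.1 to 434.8 kb), against 24.9 kb over all genes. Across 17930 genes with a known length, Spearman's rho between length and the astrocyte difference was −0.32 under estradiol and −0.34 under vehicle. Within the 10 genes it was −0.22 and −0.44 in the same order. Genes are not independent replicates, and the part of length in the differences was not tested.

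Other SWI/SNF subunit genes gave a more mixed picture. Of 20 measured, 1 passed downwards and 3 upwards with astrocytes under estradiol, where 13.2% of all genes passed in either direction. Their median difference was −0.46, against −0.58 over genes above the median level. BICRAL, a gene of the noncanonical BAF form, fell to 4.47, 4.83 and 4.31 in estradiol with astrocytes, against 5.49, 5.26 and 5.55 in estradiol alone, a difference of −0.90 (SE 0.26) with an adjusted p of 0.0466 in limma. SMARCD3, the muscle and heart form of the SMARCD subunit, rose to 5.44, 6.15 and 5.86 in estradiol with astrocytes, against 4.64, 4.81 and 4.63 in estradiol alone. Its difference was 1.13 (SE 0.24), with an adjusted p of 0.0338. BCL7C rose by 0.82 (SE 0.19, adjusted p 0.0351 in limma) and ACTL6B, the neuronal actin-related subunit gene, by 0.97 (SE 0.28, adjusted p 0.0469 in limma). Several more genes had negative differences that did not pass, among them SS18 at −1.51, SMARCD1 at −1.23, PHF10 of PBAF at −1.13 and BRD9 of the noncanonical form at −1.05, with adjusted p of 0.0550, 0.0590, 0.0506 and 0.0720 in that order. Other genes that did not pass had positive differences, among them BCL11B at 1.26 and BICRA at 0.75, with adjusted p of 0.0583 and 0.0634 in limma. Of the 20, 13 had a negative difference under estradiol. Under vehicle none of the 20 passed, and the median difference was −0.20.

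Lists of genes of 4 other groups of chromatin complexes also had negative medians with astrocytes. Of all genes 13.2% passed under estradiol in either direction and 8.15% downwards, and 0.0557% passed under vehicle. Genes above the median level had a median of −0.58 under estradiol and −0.37 under vehicle. Among ISWI remodeller genes 3 of 11 passed downwards under estradiol (BPTF at −2.27, BAZ2A at −1.40 and BAZ1B at −1.33), with a median of −1.33. Among CHD and NuRD genes 8 of 21 passed, all downwards, with a median of −1.23, and CHD6 differed by −1.57, CHD2 by −1.77 and CHD7 by −1.28. For INO80 and SRCAP genes 3 of 18 passed downwards and 1 upwards, with a median of −0.39, INO80D at −1.56, EP400 at −0.88 and INO80E at 1.00. For Polycomb repressive complex 2 genes 3 of 9 passed, all downwards (JARID2 at −1.48, AEBP2 at −1.25 and PHF1 at −1.21), with a median of −1.21. None of the genes of these 4 lists passed under vehicle, with medians of −0.80, −0.71, −0.39 and −0.76 in the order above. Set beside these, the 9 SWI/SNF genes other than PBRM1 had a median of −0.78 under estradiol, and all 10 had a median of −0.66 under vehicle.

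**Figure D4:**
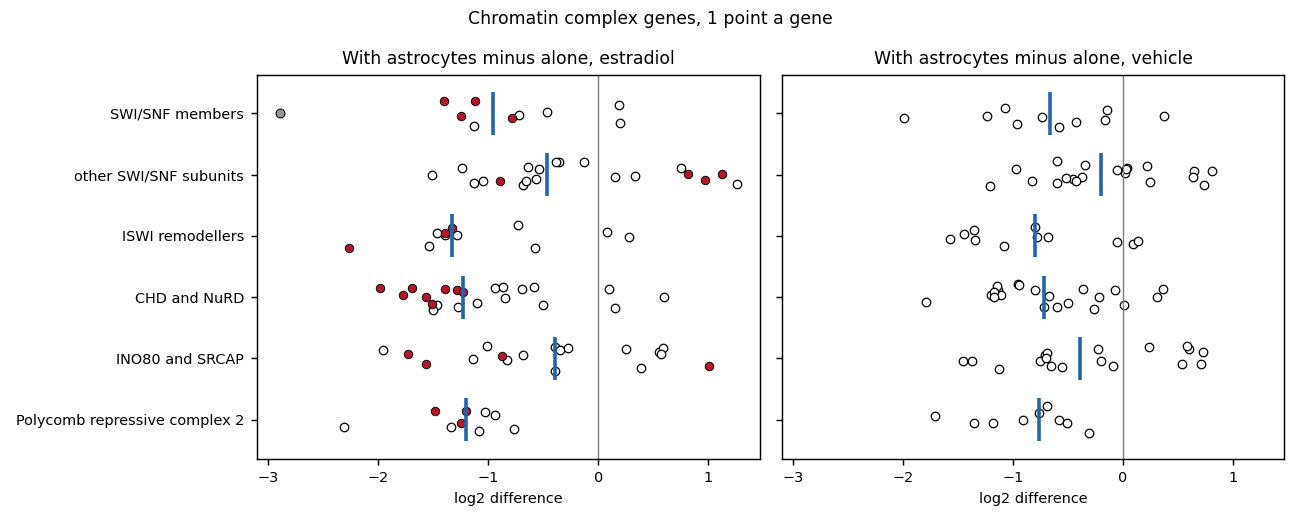
Log2 difference with astrocytes minus alone (x axis) of the 10 subunit genes and of 5 further lists of chromatin complex genes, 1 point a gene, under estradiol on the left and under vehicle on the right. Red points passed an adjusted p of 0.05 in limma, white points did not, grey is PBRM1 without a test, and blue bars are medians. The median of the 10 subunit genes includes PBRM1. Medians lie below 0 in all 6 lists in both panels, and PBRM1 is the lowest point in either panel.

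Markers of cells that a mouse astrocyte culture may hold were counted in the same fit. With astrocytes under estradiol 1 of 12 microglia genes passed upwards (SPI1 at 1.28) and 1 of 10 oligodendrocyte genes (OLIG1 at 1.04), and none of 9 neuron genes or of 11 endothelial and fibroblast genes passed. Over all genes 13.2% passed in either direction. Most of these genes had positive differences, 11 of 12 in the microglia list (median 0.73), 8 of 10 in the oligodendrocyte list (0.66), 7 of 9 in the neuron list (0.53) and 10 of 11 in the endothelial and fibroblast list (0.35). The median difference was 0.07 over all genes and −0.58 over genes above the median level. In estradiol alone the median log2 signals of these 4 lists were 3.49 to 4.32, against 5.10 to 5.15 over all genes. Other genes at such low levels were not compared with them. Of the 13 genes of the parental line EGFR passed downwards (−1.81) and S100A4 upwards (1.13). Under vehicle no gene of these lists passed, and the medians were 0.51, 0.34, 0.31 and 0.24 in the same order of the first 4 lists. The arrays carry probes for human genes, and how far mouse RNA binds to them was not tested.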

How the data were processed

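The deposited values are log2 signals per probe set. RMA and Partek are named, with neither version nor order, in the submitters' processing notes. The SD over a column ran from 1.62 to 2.22, so the columns do not share 1 distribution, and whether all arrays were normalized together is not given in the sources used here. Of 33297 probe sets, 19181 carried 1 symbol in the platform annotation, giving 17958 genes at their highest-mean probe set. No filter on low values was applied. All 12 arrays (4 groups of 3) entered limma 3.58.1 in R 4.3.3 with 1 mean per group and eBayes. The 5 contrasts were tested two-sided, and p-values were adjusted over all 17958 genes (Benjamini-Hochberg, threshold 0.05). An exact permutation test of 3 against 3 arrays cannot go below 0.1 and was not used. Tables and figures were made in Python 3.11.15. The fit was tested on simulated data.

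The members and gene lists were chosen with earlier results of these data known. All 10 members are named, up to 3 genes with the smallest p from each other list, and the 5 genes most like PBRM1. Further subunit and marker genes named were chosen after their values were seen.

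Between both astrocyte groups, arrays of 1 replicate number had positive correlations of their deviations (r = 0.789, 0.756 and 0.214). Replicate 3 of estradiol with astrocytes deviated more like replicate 1 of vehicle with astrocytes (r = 0.396) than like replicate 3. No label explains the number, so pairing is not known, and the main fit held no replicate block. A replicate block changed no call between these groups. Alternatives covered normalization, array SD, level filter, probe sets, variance model, array weights, samples and single arrays. Promoters, names and gene lengths came from RefSeq tables (GRCh38.p14).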

Additional observations from a re-analysis of the deposited data

How the results depend on the processing

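With astrocytes under estradiol, 4 of the 9 genes other than PBRM1 passed, where 13.2% of all genes did. PBRM1 is left out of the counts there, as its fall led to the choice of the family. Over the 9, the count was 1 after quantile normalization (2.95% of all genes), 1 without moderation of the variance (0.696%) and 0 with the array SD as a covariate (2.61%). It was 0 with only the compared groups in the fit (0%), 2 without replicate 2 of both astrocyte groups (9.19%) and 0 at a threshold of 0.01. With arrayWeights it was 7 (SMARCB1 higher, the rest lower), where 66.8% of all genes passed. The arrayWeights fit used the gene-by-gene method, chosen after seeing the data because the default did not converge. With the replicate block 5 of the 9 passed, where 37.3% of all genes did. With the replicate block and only the compared groups, an alternative added after seeing the data, 0 passed. Leaving out single arrays gave 0 to 6 of the 9, the 6 where 51.4% of all genes passed. The median difference over all 10 genes, PBRM1 included, was −0.95. It was −0.56 after quantile normalization and −0.42 with the array SD, and lay between −1.09 and −0.72 with single arrays left out. Under vehicle, 0 of the 10 passed, PBRM1 included. The count was 5 with the replicate block (14.4% of all genes), 5 with the block and only the compared groups (26.1%) and 1 with only the compared groups (8.88%). It was 7 with arrayWeights (6 lower, 1 higher, 59.4%), 2 at a threshold of 0.10 and 0 to 5 with single arrays left out. Same-number arrays did not all deviate together in either astrocyte comparison (r = 0.538, 0.485 and −0.016 under estradiol, 0.582, −0.436 and 0.065 under vehicle). These correlations cannot tell what a shared number marks, and pairing is not known. Between estradiol and vehicle, and for the interaction, none of the 10 passed under any alternative. Of the 10 genes, 7 turned sign under some single omission for estradiol with astrocytes, 8 for estradiol without astrocytes and 6 for the interaction, all uncalled. Among those named under further settings, the sign turned for ARID1B with astrocytes under estradiol (−0.36 with the array SD, −0.24 with arrayWeights, −0.26 without replicate 2 of estradiol with astrocytes or of both astrocyte groups, −0.26 to 0.46 over single omissions) and for SMARCC2 (0.20 with the array SD). Under vehicle it turned for SMARCA4 (0.22 after quantile normalization, 0.35 with the array SD) and SMARCC2 (0.30 and 0.37 in that order). For estradiol without astrocytes it turned for PBRM1 (−0.0058 after quantile normalization, −0.085 with the array SD, −0.021 with arrayWeights, −0.014 without replicate 3 of vehicle alone, −0.014 to 0.060 over single omissions) and SMARCA4 (0.026 without replicate 3 of estradiol alone, 0.019 without replicate 1 of vehicle alone, −0.032 to 0.026 over single omissions), and for estradiol with astrocytes it turned for PBRM1 (0.013 without replicate 2 of estradiol with astrocytes, −1.60 to 0.013 over single omissions). Over all genes, the 2366 calls with astrocytes under estradiol ranged between 0 (compared groups only) and 11989 (arrayWeights) over other settings and 3 and 9222 without single arrays, and the 10 calls under vehicle between 5 and 10663 and between 2 and 6107. Of the 2366 calls 903 were higher and 1463 lower, whereas with the array SD 286 were higher and 183 lower. The cause of these shifts was not tested. With 3 arrays a group, the number of arrays limits what can be told apart.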
